A study of Mus musculus with 12 samples.

Results

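Mammary tumors were compared with only those benign mammary samples that held little skeletal muscle RNA. Of 12 samples sequenced, 9 entered this comparison, 6 tumors and 3 of the 6 benign samples. The benign samples were chosen by their level of Acta1, the actin of skeletal muscle fibres, with a cutoff of 1000 CPM, the count of a gene per 1000000 counts of its sample. Benign samples 1, 2 and 5 lay at or below the cutoff and are called muscle-poor here. Benign samples 3, 4 and 6 lay above it and served only to show which calls of the comparison of all 6 tumors with all 6 benign samples stayed, vanished or reversed. All mice were female and carried the MMTV/neu ndl-YD5 transgene, an activated HER2 with its YD autophosphorylation site added back, driven by a promoter that is active in mammary epithelium. The benign samples, free of visible tumor, came from transgenic mice too, though not from those whose tumors were sequenced, and their site in the body varied with the place of the tumors. The labels give neither the ages nor the region of each benign sample.

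The mammary fat pad is a layer of white fat that holds the epithelial ducts, vessels and nerves, and it lies on the muscle of the body wall or next to the brown fat of the neck. Muscle and brown fat are both rich in mitochondria, and muscle is also rich in the enzymes of glycolysis. Bulk RNA mixes all cells of a sample, so fewer cells of a type and less RNA per cell cannot be told apart here.

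Acta1 (chromosome 8, 123891769 to 123894751, reverse strand, GRCm38) was at 9.73, 22.1 and 119.9 CPM in benign samples 1, 2 and 5, and at 11841, 6457 and 15433 CPM in benign samples 3, 4 and 6. Nearest to the cutoff were benign sample 5 on the inside and benign sample 4 on the outside. The tumors had a lowest value of 0 CPM, a median of 0.460 CPM and a highest value of 34.6 CPM, the last in tumor sample 5, which lay above benign samples 1 and 2. Since Acta1 chose the samples, it is given as a description. The 30 genes of a skeletal muscle list summed to 75.4 to 513.7 CPM in the muscle-poor samples, to 38940 to 95109 CPM in the benign samples above the cutoff and to 13.3 to 230.8 CPM in the tumors. Of these 30 genes, 4 were at 0 in benign sample 1, 4 in benign sample 2 and none (0) in benign sample 5, so some muscle RNA remained.

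Ucp1 (chromosome 8, 83290352 to 83298452, forward strand), the uncoupling protein of brown fat, followed the same split although it was not used for the choice. Its values were 10.7, 0 and 3.52 CPM in benign samples 1, 2 and 5, 38.1, 1206 and 174 CPM in benign samples 3, 4 and 6, and 0 in every tumor except tumor sample 5 (7.27 CPM). Samples poor in muscle RNA were thus also those with the least Ucp1 among the benign samples. Above the cutoff both tissues ranked the samples differently. The skeletal muscle list summed to 66505, 38940 and 95109 CPM in benign samples 3, 4 and 6, and the brown fat list to 185, 2491 and 618 CPM. The part of each tissue in what follows was not tested. Of the 10 genes of the brown fat list, only 3 were higher in every benign sample above the cutoff than in any below it. For the other 7 the benign sets overlapped. The list sum overlapped too, at 221, 117 and 122 CPM in benign samples 1, 2 and 5. Cidea, another gene of brown fat, was at 88.2, 19.8 and 14.9 CPM in the muscle-poor samples and 43.9, 734 and 252 CPM in the others.

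Benign sample 1 stood apart from all others by its lymphocyte RNA. Markers of B cells (10 genes) summed to 1023 CPM in it and to 4.27 and 9.52 CPM in benign samples 2 and 5, and markers of T cells (14 genes) to 1370, 36.5 and 36.9 CPM. In the tumors these sums were at most 3.43 and 22.02 CPM. Cd79a, part of the B cell receptor, was at 157, 0.377 and 0.521 CPM in benign samples 1, 2 and 5. Counts below are therefore also given without benign sample 1 wherever a result rests on it.

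**Figure D1:**
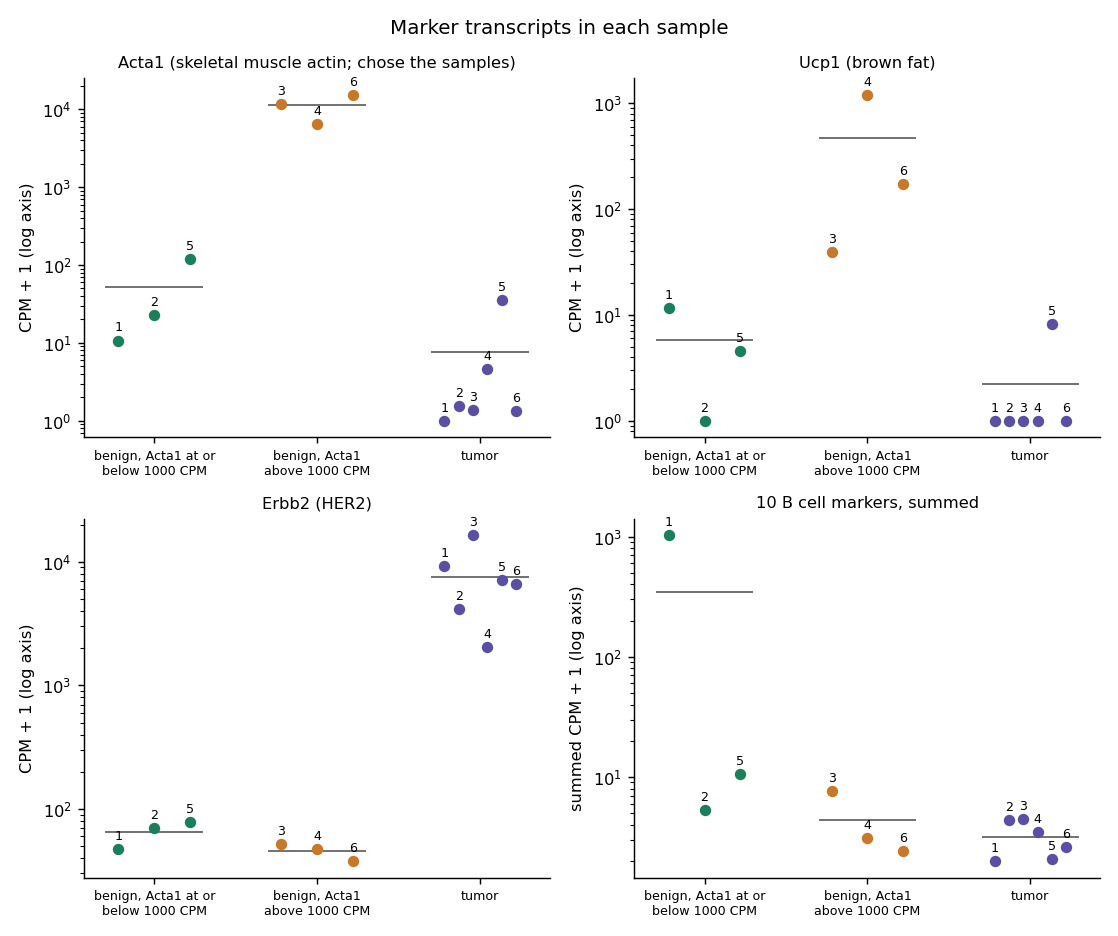
Levels of Acta1, Ucp1, Erbb2 and the sum of 10 B cell markers in each of the 12 samples, as CPM plus 1 on log axes. Points carry the sample number and short lines are group means. Acta1 divides the benign samples at 1000 CPM, benign sample 4 has the most Ucp1 (1206 CPM), the tumors lie at 2029 to 16355 CPM of Erbb2, and benign sample 1 alone has a B cell sum of 1023 CPM.

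Total counts were 5240853 to 7962393 in the muscle-poor samples, 6675837 to 8170687 in the other benign samples and 6111393 to 8588567 in the tumors, so depth did not separate the groups. Genes were compared by edgeR's quasi-likelihood test, two-sided, and called at a Benjamini-Hochberg adjusted p-value under 0.1, the study's threshold. Every fold change is on the log2 scale, tumor over benign. Each of 17 white adipocyte and 23 luminal epithelial markers had counts in the muscle-poor samples. The same held in several tumors, so it does not identify the tissue. The white adipocyte markers summed to 27695 to 39177 CPM in the muscle-poor samples and 258.1 to 536.5 CPM in the tumors.

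Erbb2 (chromosome 11, 98412470 to 98437716, forward strand), the gene of HER2, was at 46.2, 69.1 and 76.9 CPM in benign samples 1, 2 and 5, while the tumors ranged from 2029 to 16355 CPM around a median of 6878 CPM. No tumor overlapped a benign sample. The log2 fold change was 6.95 (standard error 0.79) with an adjusted p of 7.1e-05 (edgeR), and 7.22 against the benign samples above the cutoff. The table has 1 entry for Erbb2, and its counts do not tell RNA made from the transgene from that of the endogenous gene.

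Against muscle-poor benign tissue, 13604 genes were tested. Of these, 3629 (26.7%) were higher and 3906 (28.7%) lower in tumors, and 1500 and 2601 of them lay beyond a log2 fold change of 1. With all 6 benign samples, 3720 of 13191 genes (28.2%) were higher and 4594 (34.8%) lower, and against the 3 benign samples above the cutoff 4008 of 13605 (29.5%) were higher and 4354 (32.0%) lower. These shares are the background against which the gene lists below are read. The comparisons share all 6 tumors, and the first is part of the second, so they are set side by side and not tested against each other.

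Of the 8314 calls made with all benign samples, 6750 stayed against muscle-poor tissue, 1555 vanished and 9 reversed. Vanishing was more common among genes lower in tumors, at 1008 (21.9%) of them against 547 (14.7%) of those higher. Against the 3 benign samples above the cutoff, a comparison of the same size, 1003 calls vanished (12.1%) and 1 reversed. Of the 1008 vanished lower calls, 280 (27.8%) were higher in each benign sample above the cutoff than in any muscle-poor one by plain CPM. This held for 9.70% of the lower calls that stayed and 6.85% of all genes tested. Vanished calls rested on the samples left out, so part of this excess is a product of the choice. The count of vanished calls rested on the sample number too, and it was 2417 without benign sample 2.

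A further 359 genes were higher and 152 lower only against muscle-poor tissue among genes tested in both comparisons. For 107 of the 359 all benign samples above the cutoff lay above all muscle-poor ones. Since the choice of samples lowered the benign level of every gene that follows muscle, a call of such a gene is partly a product of the choice. For genes whose benign sets did not overlap in this way, fold changes are given below as a description, and adjusted p-values are given only for genes whose benign sets overlapped, or whose level was lower above the cutoff.

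**Figure D2:**
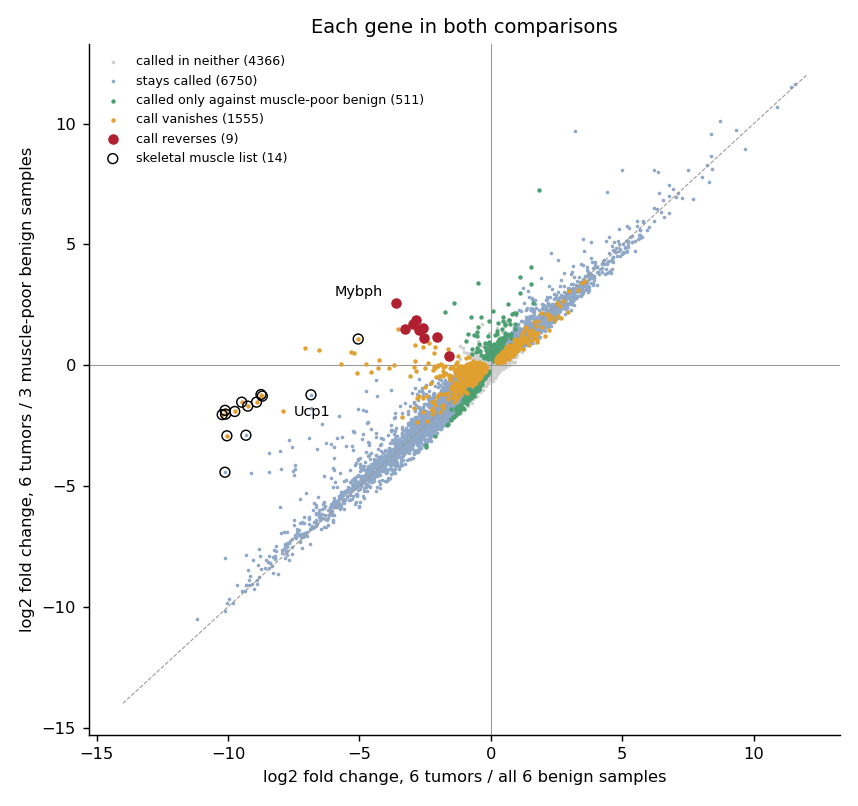
Log2 fold change of each gene tested in both comparisons, with all 6 benign samples on the horizontal axis and with the 3 muscle-poor samples on the vertical axis. The dashed line marks equal values and open circles mark 14 skeletal muscle genes. The 9 reversed calls lie at the upper left, with Mybph highest at 2.57, and Ucp1 moves from -7.91 to -1.88.

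The calls that vanished with the largest change of estimate were those of muscle. By the rule for named genes, 9 of the first 10 were in the skeletal muscle list, and Actn2, an actinin of the muscle Z disc, was the other. Ckm, the creatine kinase of muscle, was at 0.191, 0.126 and 30.2 CPM in benign samples 1, 2 and 5 against 4997, 3016 and 6844 CPM in samples 3, 4 and 6, and its log2 fold change moved from -10.11 to -1.87. Benign sample 5 held most of what was left of Ckm, and the tumors ranged from 0 to 12.5 CPM. Tnnt3, a troponin of fast fibres, moved from -10.22 to -2.04, and Mylpf, a myosin light chain of fast fibres, from -9.48 to -1.53. Outside the list, Cmya5 and Myom1, sarcomere proteins, and Srl, a protein of the sarcoplasmic reticulum, moved from -6.55, -5.69 and -5.09 to 0.62, 0.07 and -0.32. Actn2 and Cmya5 changed sign without a call (Actn2 from -7.07 to 0.70).

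Of the 30 muscle genes, only 14 had enough counts to be tested against muscle-poor tissue, 3 of them were called lower, and all 14 were lower with all benign samples, their median moving from -9.40 to -1.78. The choice of samples used a gene of this list, so these counts are no finding about it. The 3 calls were Myl1 (a myosin light chain, 17.4, 19.97 and 30.4 CPM in benign samples 1, 2 and 5 and at most 5.25 CPM in the tumors), Casq1 (the calcium store protein calsequestrin) and Eno3 (the enolase of muscle). Without benign sample 1 the log2 fold change of Eno3 was -0.72 and its call was lost.

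The 9 reversed calls were all of genes lower in tumors with all benign samples and higher against muscle-poor tissue. Each was higher in all 3 benign samples above the cutoff than in all 3 below it, so the reversal is given as a description. Pfkm (chromosome 15, 98092589 to 98132451, forward strand), the muscle isoform of phosphofructokinase, was at 44.1, 53.3 and 48.4 CPM in benign samples 1, 2 and 5, at 76.8 to 163 CPM in the tumors (median 90.5) and at 880.0, 541 and 1420.3 CPM in benign samples 3, 4 and 6. The tumors thus lay between both sets of benign samples without touching either. Its log2 fold change was 1.15 (standard error 0.24) against muscle-poor tissue, -2.54 with all benign samples and -3.42 against those above the cutoff.

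The same order held for Tmem38a, a potassium channel of the sarcoplasmic reticulum that aids calcium release. It was at 6.30, 7.91 and 8.34 CPM in the muscle-poor samples, 21.9 to 36.8 CPM in the tumors and 308, 170.2 and 433 CPM in the other benign samples, with log2 fold changes of 1.86 and -2.84. Adssl1, the muscle form of adenylosuccinate synthase, moved from -2.75 to 1.47, and Pde4dip (myomegalin, a scaffold of phosphodiesterase) from -2.06 to 1.19. Both had tumors between the benign sets. Perm1, a regulator of muscle mitochondria, moved from -3.26 to 1.48, Mybph, a myosin-binding protein, from -3.60 to 2.57, and Asb16, a SOCS box protein, from -2.58 to 1.55, at tumor levels of at most 12.8 CPM. Capn3, a calpain of muscle, and Usp2, a ubiquitin protease, overlapped the muscle-poor samples in the tumors (log2 fold changes 1.69 and 0.40). They lost their calls when any of several single samples was left out (lowest values 1.18 for Capn3 without benign sample 5 and 0.34 for Usp2 without tumor sample 3), and Mybph lost its call without benign sample 1 (2.19) and was at 1.77 without tumor sample 5. Capn3 was at 2.97 without benign sample 1.

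The nuclear genes for oxidative phosphorylation (OXPHOS), the chain of complexes that passes electrons from fuels to oxygen and drives the making of ATP, were lower in tumors in far fewer cases against muscle-poor tissue. Of 84 subunits, 38 were lower and 3 higher, against a background of 28.7% and 26.7%, and their median log2 fold change was -0.29 where that of all genes tested was 0.001. With all benign samples 74 were lower and the other 10 not called at a median of -1.03, and against those above the cutoff 81 were lower at -1.45. The 38 lower calls stayed from the comparison with all benign samples, the 36 other calls of that comparison vanished. The summed OXPHOS level was 11987, 11778 and 12346 CPM in benign samples 1, 2 and 5 and 7737 to 11959 CPM in the tumors. In benign samples 3, 4 and 6 it was 15843, 28749 and 20960 CPM. Tumor sample 1 overlapped the muscle-poor samples and the other 5 tumors lay below them. The count of lower subunits was 33 without benign sample 1 and 28 without benign sample 2. It was 26 when all 12 samples were fitted in 3 groups.

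The complexes differed. In Complex I, which takes electrons from NADH, 20 of 36 subunits were lower and 1 higher, at a median of -0.39 (-1.13 with all benign samples). In Complex II, which belongs to the TCA cycle as well, 4 of 4 were lower (-0.54, from -1.37). Complex III had 3 of 9 lower (-0.27, from -1.03) and Complex IV, the oxidase that uses oxygen, 9 of 16 (-0.44, from -1.05). In Complex V, the ATP synthase, 2 of 19 were lower and 2 higher at a median of -0.03, where 12 had been lower at -0.63. The share of lower calls lay below the background in the ATP synthase, near it in Complex III and above it in Complexes I, II and IV. Without benign sample 1, 18, 4, 3, 8 and 0 subunits of Complexes I to V were lower. Without benign sample 5 these counts were 15, 3, 2, 9 and 1. No test of a difference between complexes was made.

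Single subunits show how far the levels moved. Sdhb, the iron-sulfur subunit of Complex II, was at 160.1, 133 and 142 CPM in benign samples 1, 2 and 5, 244, 473 and 337 CPM in samples 3, 4 and 6 and 37.2 to 66.9 CPM in the tumors (median 57.4), with a log2 fold change of -1.32 (standard error 0.17). All 6 tumors lay below all benign samples. Uqcrq of Complex III (-1.36), Sdha of Complex II (-0.67) and Ndufa10 of Complex I (-0.78) also had no tumor above a benign sample. Uqcrfs1, the Rieske protein of Complex III, was at 144, 133 and 142 CPM in the muscle-poor samples and 97.99 to 182 CPM in the tumors, and its fold change went from -1.03 to -0.04. Its tumors spanned the muscle-poor values on both sides.

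In Complex IV the isoforms of contractile tissue and brown fat did not move alike. Cox7a1, the isoform of heart and muscle, was at 8.59, 5.53 and 4.82 CPM in benign samples 1, 2 and 5, 48.7, 149 and 70.9 CPM in samples 3, 4 and 6 and 5.56 to 21.4 CPM in the tumors, so its log2 fold change turned from -2.35 to 0.91 without a call. Cox6a2, another muscle isoform, was at 0.382, 0.126 and 0.912 CPM in the muscle-poor samples and was not tested. Cox8b, high in brown fat and muscle, stayed lower (46.4, 20.8 and 13.9 CPM in the muscle-poor samples, 0.565 to 8.51 CPM in the tumors, -2.96 with standard error 0.76, and -2.36 without benign sample 1). Other isoforms had benign sets that overlapped. Cox4i2, an isoform known from lung and other tissues, was at 6.87, 5.27 and 3.78 CPM in the muscle-poor samples and at most 0.539 CPM in the tumors (log2 fold change -3.69 with standard error 0.34, adjusted p = 1.7e-05 by edgeR). Cox4i1, the common isoform, was at 409, 463 and 413 CPM and at 251 to 337 CPM in the tumors (-0.46 with standard error 0.12, adjusted p = 0.013 by edgeR). Of the 84 subunits, 16 had overlapping benign sets, and 10 of these 16 were lower in tumors and the other 6 were not called.

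The 3 OXPHOS subunits higher in tumors were Atp5g1, a gene of the membrane ring of ATP synthase (59.2, 69.6 and 88.8 CPM in the muscle-poor samples, 94.9 to 163 CPM in the tumors, log2 fold change 0.78), Dmac2l, a coupling factor of the same enzyme (0.53), and Ndufb2 of Complex I (0.37). None of the 3 was called with all benign samples. The call of Ndufb2 was lost when any of 7 single samples was left out (0.29 without tumor sample 1). The alpha and beta subunits of ATP synthase were at 903, 939 and 1024 CPM (Atp5a1) and 1349, 1345 and 1475 CPM (Atp5b) in the muscle-poor samples. Atp5a1 went from -0.71 to 0.01 and lost its call, while Atp5b kept one at -0.40, which was lost without any 1 of 6 samples (-0.35 without benign sample 5).

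Oxidation of acetyl groups and of fat stayed lower in more of its genes. Of 18 TCA cycle genes, which include the 4 of Complex II, 13 were lower and 5 not called, against a background of 28.7% lower. Their median was -0.58, where 17 had been lower at -1.57 with all benign samples (background 34.8%). For 17 of the 18 every benign sample above the cutoff exceeded every muscle-poor one, so the change in their calls is given as a description. The sum of the list was 4377, 3905 and 4021 CPM in benign samples 1, 2 and 5 and 2105 to 3097 CPM in the tumors, which did not overlap. In benign samples 3, 4 and 6 it was 6190, 12864 and 8950 CPM. Cs, the citrate synthase that starts the cycle, was at 485, 444 and 469.8 CPM in the muscle-poor samples and 138 to 177 CPM in the tumors (median 161), a log2 fold change of -1.49 (standard error 0.11) where it was -2.35 with all benign samples. Sucla2, a subunit of succinyl-CoA ligase, and Idh2, the NADP-linked isocitrate dehydrogenase, were lower by -1.05 and -1.05. Among the calls that vanished was that of Idh3a, a subunit of the NAD-linked isocitrate dehydrogenase (from -1.59 to -0.48). It was called lower when tumor sample 1 or 5 was left out.

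Of 18 genes of fatty acid oxidation, 17 were lower in both comparisons, against backgrounds of 28.7% (muscle-poor) and 34.8% (all benign samples). The median moved from -1.96 to -0.81. The sum was 3021, 2844 and 2711 CPM in benign samples 1, 2 and 5 against 1295 to 1748 CPM in the tumors. In benign samples 3, 4 and 6 it was 3243, 11321 and 6319 CPM. In this list 7 genes had overlapping benign sets, and all 7 of these were lower. Acadm, the medium-chain acyl-CoA dehydrogenase, was at 319.8, 329 and 272 CPM in the muscle-poor samples and 88.4 to 112 CPM in the tumors (log2 fold change -1.61 with standard error 0.11, adjusted p = 1.9e-06 by edgeR). Decr1, an enzyme for unsaturated fatty acids, was at 144, 136 and 127 CPM and 16.8 to 44.01 CPM (-1.87 with standard error 0.24, adjusted p = 0.00017 by edgeR). Cpt1b, the carnitine transferase of muscle, fell less far against muscle-poor tissue (-1.83, from -5.05, and -1.17 without benign sample 1), and Cpt2, its partner on the inner membrane, was lower by -1.73. The call of Hadha, a subunit of the trifunctional protein (-0.44), was lost without benign sample 1 (-0.42) or benign sample 2 (-0.44).

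**Figure D3:**
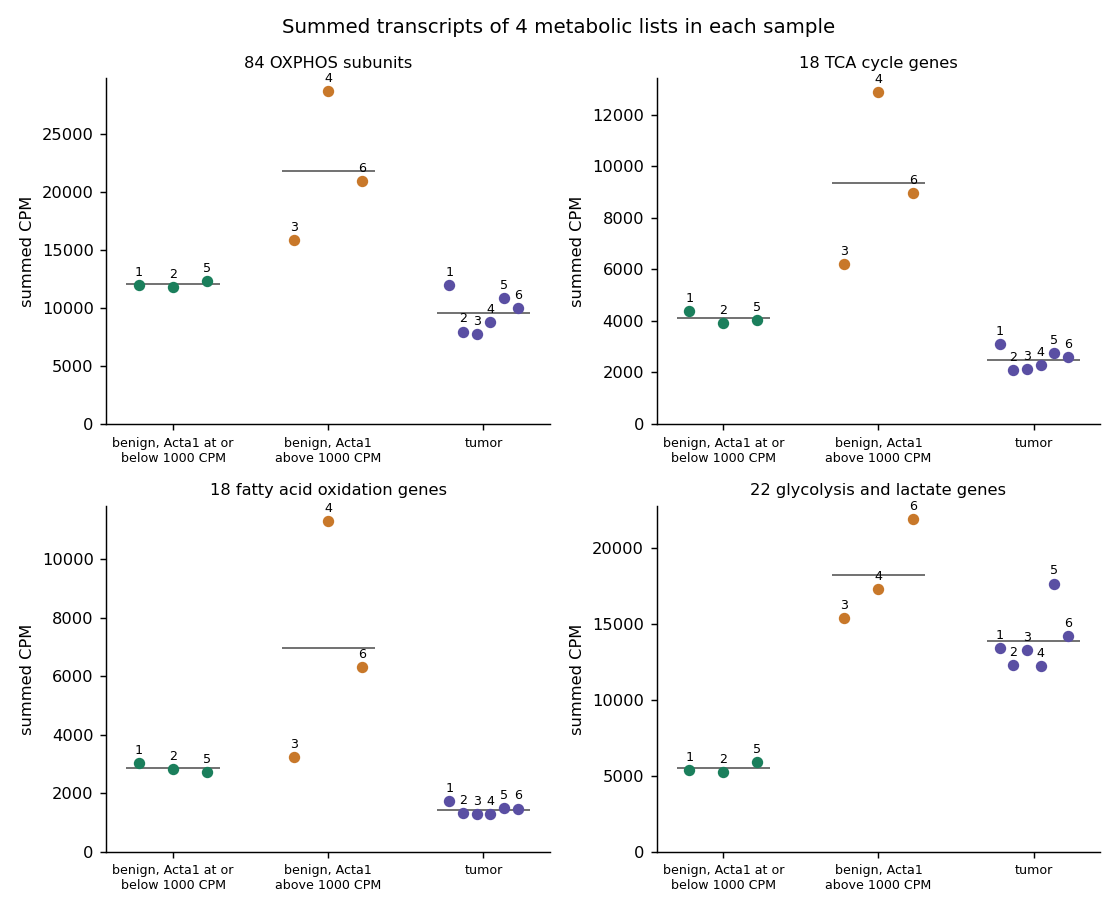
Summed CPM of the OXPHOS, TCA cycle, fatty acid oxidation and glycolysis lists in each sample, on axes that start at 0, with sample numbers and group means as short lines. The muscle-poor samples lie close to each other (OXPHOS 11778 to 12346 CPM) and below the other benign samples, and only for glycolysis do the tumors (12260 to 17687 CPM) lie above them.

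Transcripts of the mitochondrial ribosome, which makes the proteins encoded in mitochondria, were lower in a share near the background of 28.7%, while 26.7% of all genes were higher. Of 78 genes, 24 (30.8%) were lower and 0 higher by edgeR at a median of -0.20, with 0 higher also at an unadjusted p under 0.05 and by DESeq2, where 61 had been lower at -0.55 with all benign samples. The count of lower mitochondrial ribosome genes was 20 without benign sample 1 and 13 without benign sample 5. Among 14 regulators of mitochondrial content 3 were higher and 2 lower, both shares below the background of 26.7% and 28.7%. Ppargc1a, a coactivator that drives mitochondrial genes, was at 7.63, 5.27 and 4.30 CPM in benign samples 1, 2 and 5, 12.5, 19.02 and 24.5 CPM in samples 3, 4 and 6 and 20.1 to 65.9 CPM in the tumors, with a log2 fold change of 2.84 (standard error 0.40), up from 1.46. Esrrg, a nuclear receptor that works with it, was at 6.30, 6.15 and 4.56 CPM and 38.9 to 74.1 CPM (3.27, from 2.78). Ppargc1b, the related coactivator, moved the other way, at 10.1, 5.40 and 4.82 CPM in the muscle-poor samples and at most 1.66 CPM in the tumors (-2.24 with standard error 0.36, adjusted p = 0.00066 by edgeR). Tfam, the packaging factor of mitochondrial DNA, was not called (0.17).

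Glycolysis breaks glucose to pyruvate and lactate, and its isoforms differ between muscle and other tissues. Of 21 genes tested, 17 were higher and 4 lower in tumors at a median of 1.15, against a background of 26.7% and 28.7%. With all benign samples 6 were higher and 5 lower at 0.10, and against those above the cutoff 5 of 22 were higher and 11 lower at -0.52. Of the 17 higher calls, 10 were not called with all benign samples and 1, Pfkm, had been lower. The summed level was 5388, 5281 and 5941 CPM in benign samples 1, 2 and 5, 12260 to 17687 CPM in the tumors and 15406 to 21956 CPM in the other benign samples. Without benign sample 1 the count higher was 15, the calls of Gapdh (0.81) and Tpi1 (0.42) being lost.

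For 15 of the 22 genes of the list every benign sample above the cutoff exceeded every muscle-poor one, so the change in their calls is described and not tested. Pkm, pyruvate kinase, was at 656, 515 and 647 CPM in benign samples 1, 2 and 5, 1446, 1789 and 1813 CPM in samples 3, 4 and 6 and 1807 to 2801 CPM in the tumors (median 2043). The tumors lay above every muscle-poor sample and met the other benign samples only at their lowest value. The log2 fold change was 1.87 (standard error 0.19) against muscle-poor tissue and 0.68 with all samples. Aldoa, the aldolase of muscle and most cells, turned from -0.52 to 1.38 (1399, 1328 and 1329 CPM against 2251 to 4579 CPM in the tumors). Ldha, which makes lactate, turned from -0.24 to 0.76, and Pgk1, a kinase that makes ATP, went from 0.43 to 1.52. Slc16a3, a lactate exporter, was at 2.10, 0.754 and 2.09 CPM in the muscle-poor samples and 2.20 to 13.6 CPM in the tumors, and turned from -1.74 to 2.19.

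In the other genes of the list the benign sets overlapped or were lower above the cutoff, and 6 of these 7 were higher in tumors in both comparisons. Pgam1, a mutase, was higher only against muscle-poor tissue (0.85 with standard error 0.20, adjusted p = 0.0064 by edgeR). Hk1, the hexokinase of most tissues, was at 141, 153 and 142 CPM in benign samples 1, 2 and 5 and 769 to 1067 CPM in the tumors (log2 fold change 2.72 with standard error 0.17, adjusted p = 1.3e-06 by edgeR). Aldoc, the aldolase of brain, was at 53.6, 87.9 and 74.4 CPM and 508 to 2069 CPM (4.03 with standard error 0.50, adjusted p = 0.00011 by edgeR). Pfkl and Pfkp, the phosphofructokinases of liver and platelets, rose by 2.19 and 1.81, and Slc2a1, the common glucose carrier GLUT1, by 1.90 (adjusted p = 1.1e-05, 0.00019 and 0.00087 by edgeR). Eno1, the common enolase, rose by 1.32 (adjusted p = 0.00042 by edgeR). The tumors did not overlap the muscle-poor samples for any of these 6 genes. The 4 lower genes were Slc2a4, the insulin-dependent glucose carrier of fat and muscle (212, 190.3 and 206 CPM against at most 5.79 CPM, -5.80), Slc16a1, a lactate carrier (-2.62), Hk2, the hexokinase of muscle and fat (-1.55), and Eno3.

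**Figure D4:**
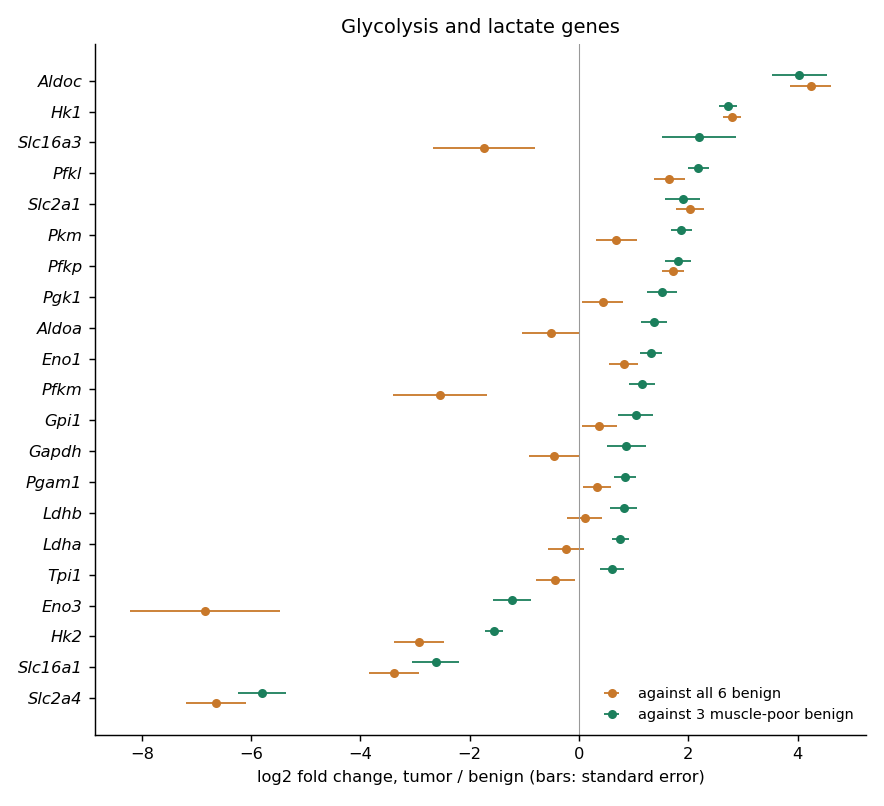
Log2 fold change, tumor over benign, of the 21 glycolysis and lactate genes tested in both comparisons, with standard errors as bars. Green points (3 muscle-poor samples) lie to the right of orange points (all 6 benign samples) for most genes, furthest for Eno3, Slc16a3 and Pfkm, while Aldoc (4.03 and 4.24) and Hk1 (2.72 and 2.80) differ little.

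In the lists of HER2 signaling the median log2 fold changes moved little between the comparisons, while some calls of kinases vanished. The 4 receptors of the family were all higher, with log2 fold changes of 1.16 for Egfr, 2.004 for Erbb3 and 3.84 for Erbb4. Of 16 feedback genes and targets of the MAPK pathway, 14 were higher and 2 not called at a median of 1.62. The list holds genes that the study picked from these samples, so it is not independent evidence of its direction. Dusp6, a phosphatase of ERK, was at 76.7, 67.7 and 64.00 CPM in benign samples 1, 2 and 5 and 637 to 1277 CPM in the tumors (log2 fold change 3.68 with standard error 0.26), Etv1, an ETS factor, rose by 5.74 and Spry2, an inhibitor of the pathway, by 1.76. Of 29 kinases and partners, 11 were higher and 5 lower (background 26.7% and 28.7%), where 11 and 9 had been. Of the calls made with all benign samples in this list, 15 stayed and 5 vanished, while 18.7% of all such calls vanished. The count higher was 8 without benign sample 1 and 7 without benign sample 5. Pik3cg (2.75, and 3.43 without benign sample 1) and Pik3c2a (2.41), both PI3 kinases, and Mapk3, the kinase ERK1 (0.74), were higher, and Akt2 (-1.18) and Eif4ebp1, a brake on translation (-1.98), were lower.

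Some of these calls hung on the benign samples. Map2k2, the kinase MEK2, went from -0.50 to -0.22, and Eif4e, the cap-binding factor, from -0.51 to -0.10, and both lost their calls. Hras, a GTPase of the pathway, kept its call at 0.95 but lost it without any single muscle-poor sample (0.85 without benign sample 1). Pik3cd, the PI3 kinase of leukocytes, was at 202, 20.3 and 17.5 CPM in benign samples 1, 2 and 5 and at most 11.02 CPM in the tumors (-3.12). Its benign mean came mostly from sample 1, the sample with lymphocyte RNA, and without that sample the log2 fold change was -1.09 and still called.

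White fat and stroma stayed lower whichever benign samples were used. All 17 white adipocyte genes were lower, at a median of -7.48, and their sum was 27695 to 39177 CPM in the muscle-poor samples and 258.1 to 536.5 CPM in the tumors. Adipoq, the hormone adiponectin, was at 819.5, 1189 and 1094 CPM in benign samples 1, 2 and 5 and at most 7.34 CPM in the tumors (-8.38 with standard error 0.53, adjusted p = 1.6e-06 by edgeR). Of 15 genes of fatty acid synthesis 10 were lower and 1 higher (median -2.58), with Fasn, the fatty acid synthase, at 8652, 5233 and 6445 CPM against 278 to 634 CPM (-3.76). Thrsp (-5.23) and Scd1, the stearoyl-CoA desaturase (-4.70), also fell, as did Mlxipl, the sugar-sensing factor ChREBP (-4.11). The higher gene was Srebf1, the sterol and lipid factor SREBP1, at 465, 609 and 599 CPM and 1434 to 3712 CPM in the tumors (2.09 with standard error 0.33, adjusted p = 0.00054 by edgeR). Fat and stroma thus differed between tumors and muscle-poor tissue as well, and the part of this difference in the OXPHOS, TCA cycle and fat oxidation results was not tested.

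Fibroblast genes were lower in 14 of 14 cases (median -3.40) and endothelial genes in 14 of 15 (-3.24), with Pecam1 at -3.40 and Vwf, the von Willebrand factor, at -3.98. Of 37 collagens 21 were lower, among them Col1a1 (-3.64) and Col3a1 (-4.03) of connective tissue, and 12 were higher, among them Col11a1 (6.31) and Col9a1 (6.14), known from cartilage. The 13 basal and myoepithelial genes were all lower (median -3.71). Krt14 and Krt5, keratins of basal cells, were at 69.1, 124 and 77.04 and 82.05, 149 and 143 CPM in benign samples 1, 2 and 5 and at most 9.23 and 14.6 CPM in the tumors. Luminal genes split, with 15 of 23 higher and 4 lower (11 higher and 4 lower without benign sample 1). Epcam rose by 2.06, while Foxa1, a factor of hormone-responsive cells (48.1, 57.02 and 81.5 CPM against at most 1.24 CPM, log2 fold change -6.05), Krt19 (-4.67) and the progesterone and estrogen receptors Pgr (-4.28) and Esr1 (-1.41) fell. Among 8 markers of Schwann cells, 3 were higher and 3 lower. Sox10, also a factor of mammary epithelium, was at 135, 242 and 174 CPM and 885 to 1193 CPM in the tumors (2.59), and Cdh19 rose by 4.95, while the myelin genes of the list fell or were not called. Of 15 macrophage genes 9 were lower and 2 higher, against a background of 28.7% and 26.7%, with Mrc1 at -2.27. Brown fat genes were lower in 4 of 8 cases, Kcnk3 furthest (-7.48, and -8.43 without tumor sample 5).

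Protein quality genes of the endoplasmic reticulum were higher in 20 of 28 cases and lower in 1 (median 0.75), close to the 19 and 1 with all benign samples. Hspa5, the chaperone BiP (0.98), Xbp1, a factor of the unfolded protein response (1.62), and Sel1l, part of the disposal machinery (2.02, and 1.26 without tumor sample 5), were higher and Derl1 was lower (-0.85). Genes of the cytosolic ribosome were called in few cases, 2 higher and 5 lower of 80. Of 37 proteasome genes 2 were higher and 10 lower, where 19 had been lower with all benign samples. In both lists the shares against muscle-poor tissue lay below the background of 26.7% higher and 28.7% lower.

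**Figure D5:**
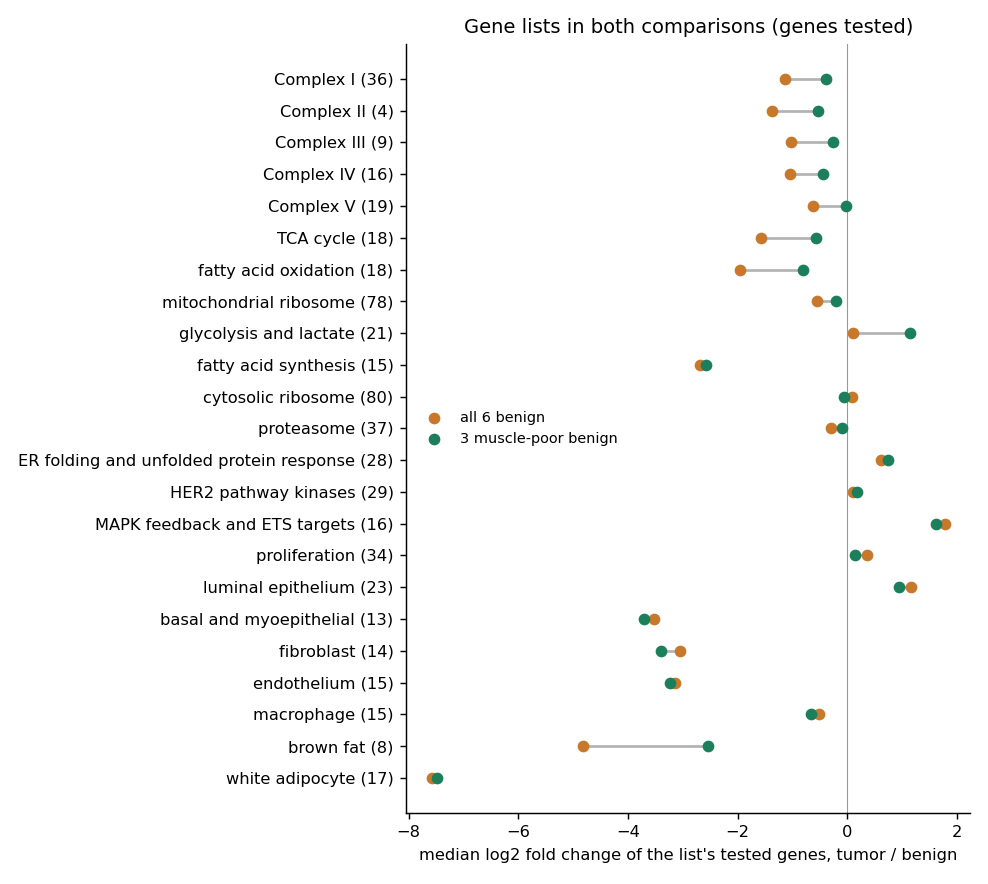
Median log2 fold change, tumor over benign, of 23 gene lists, with the number of genes tested in brackets. Green points use the 3 muscle-poor samples and orange points all 6 benign samples. Complexes I to V, the TCA cycle, fat oxidation, brown fat and glycolysis shift to the right, and white adipocyte (-7.48 and -7.58), basal and HER2 pathway lists hardly move.

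Proliferation genes depended on 1 benign sample. Of 34 genes, 3 were higher and 1 lower at a median of 0.14, but 24 were higher without benign sample 5 (median 0.76), and 1 was higher and 2 were lower without benign sample 1. The sum of the list was 982.7, 1285 and 2523 CPM in benign samples 1, 2 and 5 and 1553 to 2102 CPM in the tumors, so benign sample 5 lay above every tumor and the other muscle-poor samples below. Mki67, a marker of dividing cells, was at 73.3, 101 and 206 CPM against 165 to 327 CPM in the tumors (0.97 with standard error 0.32, adjusted p = 0.03 by edgeR), and it lost its call without benign sample 2 (0.85). Cenpf, a kinetochore protein, was called at 0.95 and lost its call without benign sample 1 (0.65) or 2 (0.85). Top2a, a topoisomerase, was not called (0.47). E2f1, a factor of S phase entry, was lower (-0.61), a call lost without benign sample 5 (-0.31) or 2 (-0.60).

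The largest rises were in genes at or near 0 in benign tissue. A2m, a protease inhibitor of plasma, had 0 counts in all 3 muscle-poor samples and 13.2 to 103 CPM in the tumors, at least 121-fold higher when 3 counts (0.447 CPM at the mean size of these samples) are taken as the floor. Prol1 was at least 109-fold higher, Scgb2b27 at least 405-fold, Chad, a matrix protein of cartilage, at least 397-fold and Alkal2, a ligand of the kinase ALK, at least 107-fold. Tumors varied widely, and Prol1 ranged from 4.80 to 212 CPM, the highest in tumor sample 4, without which it was at least 35.9-fold higher. Among the genes with the largest falls, Angptl8, a regulator of lipoprotein lipase, was at 17.9, 13.9 and 44.8 CPM in the muscle-poor samples and 0 in all tumors, at least 62.98-fold lower against a floor of 0.406 CPM and at least 39.3-fold without benign sample 5. Lep, the hormone leptin, was at 404, 923 and 1401 CPM and at most 2.79 CPM in the tumors (-9.35), and Rbp4, the retinol carrier (-9.68), Cyp2e1, a cytochrome P450 (-9.84), and Timp4, a metalloprotease inhibitor (-9.10), also fell. Without tumor sample 6 the values of Cyp2e1 and Timp4 were -10.61 and -10.81. Orm1, an acute-phase protein, and Lctl, a lactase-like protein, were at least 299-fold and 177-fold lower. Glycam1, a mucin of milk and of lymph node vessels, was at 557, 10.9 and 26.5 CPM in benign samples 1, 2 and 5 and 0 in the tumors (at least 488-fold lower), a bound that rests on benign sample 1 and is 46.04-fold without it.

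Of the genes called only against muscle-poor tissue, the 5 with the largest rise were St8sia5, a sialyltransferase (4.07), Dok7, an adaptor of the neuromuscular junction (3.65), Rragd, a GTPase of the mTORC1 pathway (3.40), Slc4a4, a bicarbonate carrier (3.38), and Slc38a3, a glutamine carrier (2.996). Rragd was at 6.87, 2.51 and 2.09 CPM in benign samples 1, 2 and 5, 66.7, 43.1 and 134 CPM in samples 3, 4 and 6 and 7.91 to 99.5 CPM in the tumors. Of these genes all but Slc4a4 were higher in every benign sample above the cutoff than in any below it. St8sia5 lost its call without benign sample 1 (3.58) or 2 (4.16), was at 4.725 without benign sample 5, and Slc38a3 lost its call without benign sample 1 (2.79) or 5 (2.93). Without tumor sample 5 Dok7 was at 2.83, without tumor sample 1 Slc4a4 was at 2.45, and without benign sample 1 Rragd was at 4.06. The 5 with the largest fall were Pou2af1, Cd8a, Rasgrp1, Zc3h12d and Tnfrsf13c, genes of lymphocytes. Cd8a, a co-receptor of T cells, was at 83.8, 0.628 and 0.261 CPM in benign samples 1, 2 and 5, and Pou2af1, a coactivator of B cells, at 75.4, 1.13 and 1.17 CPM, against a highest tumor value of 6.06 and 5.24 CPM. Without benign sample 1, the log2 fold changes of Pou2af1, Cd8a, Rasgrp1, Zc3h12d and Tnfrsf13c turned from -3.40, -3.31, -2.93, -2.48 and -2.43 to 1.02, 2.56, 0.27, 0.05 and 0.78, and none was called. Of 7 T cell markers tested 7 were lower with benign sample 1 and 3 of 7 without it, and of 2 B cell markers tested 2 and 1.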

How the data were processed

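RNA was measured in 6 tumors and 6 benign samples, grouped by their labels. The authors enriched poly A RNA, trimmed reads with Trim Galore and quantified transcripts with Salmon. They deposited an estimated count per gene in whole numbers, not scaled for library size, for 16411 genes. The submitters' processing notes name the build mm10 and DESeq2. Versions, annotation and use of strand are not given in the sources used here, so overlapping genes and near-identical copies are uncertain.

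Benign samples were chosen by Acta1 at or below 1000 CPM (count over column sum). Each comparison kept genes by filterByExpr (minimum count 10, minimum total 15) and used TMM scaling. Tests were edgeR quasi-likelihood fits (version 4.0.16, R 4.3.3), with p-values from both tails adjusted by Benjamini-Hochberg over every gene kept and called below 0.1, after the study. The common biological coefficient of variation was 0.318 against muscle-poor tissue. The test was tried on simulated data with known changes.

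The cutoff, the samples and the gene lists were chosen with earlier results of these data known. Named genes are Acta1, Erbb2, Ucp1, list members, the 10 largest rises and falls among calls with separate groups, the 10 vanished calls whose estimate moved most, and up to 5 reversed or newly called genes in each direction, at a mean of 10 CPM or more in the higher group. All 9 reversed calls are named, also those under 10 CPM, and list members were picked after their values were seen. The values of a few genes are not reported here. Gene positions are from GENCODE M21.

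Every pair of tumors and of muscle-poor samples differed by more than sampling noise (smallest chi-square per degree of freedom 12.5). Total counts were 5240853 to 8588567, and p-values measure the spread between these samples. Alternatives were DESeq2 1.42.0, upper-quartile scaling, total counts, a minimum of 1 count in total or of 10 in each sample, calling below 0.05, a block for the replicate number, all 12 samples fitted in 3 groups, each of the 9 samples left out, and the other 3 benign samples.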

Additional observations from a re-analysis of the deposited data

Results flagged for a closer look

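Among the 6 tumors, 36 of 165 values (138 genes and 27 list sums) had 1 sample further from the rest than Dixon's test at the 95% level allows. That level means about 1 in 20 for independent, normally spread values. These were plain CPM of related genes, many picked after their values were seen, so the 36 cannot be set against that rate. Of the 36, 24 belonged to tumor sample 5. No test was made among the 3 muscle-poor samples, which are too few for it.

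Tumor sample 5 had the highest levels of genes of muscle or of muscle calcium and energy handling, in CPM Acta1 (34.6), Cpt1b (9.56), Mybph (12.8), Tmem38a (36.8), Ckm (12.5), Tnnt3 (12.4), Mylpf (5.25), Myl1 (5.25), Casq1 (2.56), Myom1 (10.9) and Dok7 (35.7). The muscle list summed to 231 CPM in it, the brown fat list to 43.8 CPM and the glycolysis list to 17687 CPM. Its other outlying values, in CPM, were Ucp1 (7.27), Decr1 (16.8), Gapdh (1165), Pkm (2801), Slc16a1 (24.9), Rasgrp1 (12.1), Cidea (12.8), Sel1l (1689), Derl1 (110.3) and Kcnk3 (0.808). Of these Decr1 was the lowest of the 6 tumors. Without tumor sample 5, 1371 calls vanished in place of 1555 and 12 reversed in place of 9.

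In tumor sample 1 the outlying values were Hadha (313), Eno1 (981) and Slc4a4 (252) CPM, each the highest of the tumors. Tumor sample 3 stood apart by the basal keratins Krt5 (14.6) and Krt14 (9.23) and by a basal and myoepithelial sum of 192 CPM. In tumor sample 4, Prol1 (212) and Pecam1 (20.8) CPM stood apart, Pecam1 as the lowest of the tumors. In tumor sample 6 the values were Timp4 (0.931), Adipoq (7.34) and Tnfrsf13c (6.29) CPM, and its cytosolic ribosome sum was 47902 CPM.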

How the results depend on the processing

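Among 9 summary results (genes called in each direction, calls that stayed, vanished or reversed, and the counts of the metabolic lists), the counts of genes higher and lower, of calls that stayed, and of TCA cycle and fatty acid oxidation genes lower stayed within 1.5 times their value under DESeq2, upper-quartile scaling, total counts, both other count filters, a threshold of 0.05, a fit of all 12 samples and each fit that left out 1 sample. Under these settings the reversed calls left this range with at least 10 counts in every sample, at 4 in place of 9. The vanished calls left it without benign sample 2. When single samples were left out, 1371 to 2417 calls vanished (2417 without benign sample 2), 7 to 12 reversed, 28 to 44 OXPHOS subunits were lower and 15 to 17 glycolysis genes higher. In the fit of all 12 samples in 3 groups, 26 OXPHOS subunits, 9 TCA cycle genes and 12 fatty acid oxidation genes were lower. Each of these counts lay within 1.5 times its main value. Of all genes, 3915 were lower in that fit. Against the 3 benign samples above the cutoff, 1003 calls vanished, 1 reversed, 81 OXPHOS subunits were lower and 5 glycolysis genes higher. Genes higher made up 48.2% of all calls, and 42.0% with upper-quartile scaling.

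With the replicate block, which takes equal numbers in the labels as pairs, 2376 genes were higher, 2940 calls vanished, 0 reversed and 16 OXPHOS subunits were lower. The tumors and benign samples came from different mice, so equal numbers were not taken as pairs in the main comparison. The deviations of same-numbered samples from their group means correlated at -0.064, -0.034 and 0.086 for numbers 1, 2 and 5. The tumors that correlated best with benign samples 1, 2 and 5 were tumor samples 4, 3 and 5. Whether samples of equal number share anything else was not tested.

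Against the benign samples above the cutoff, genes higher or near 0 against muscle-poor tissue had negative log2 fold changes, Ndufb2 (-0.63), Cox7a1 (-3.22), Atp5a1 (-1.10), Atp5g1 (-0.48), Dmac2l (-0.081), Pfkm (-3.42), Aldoa (-1.24), Pgk1 (-0.11), Gapdh (-1.07), Tpi1 (-0.95), Ldha (-0.74), Slc16a3 (-2.64), Adssl1 (-3.65), Asb16 (-3.48), Capn3 (-3.88), Mybph (-4.53), Pde4dip (-2.92), Perm1 (-4.17), Tmem38a (-3.74), Usp2 (-2.33), Actn2 (-8.004), Cmya5 (-7.49), Myom1 (-6.62) and Rragd (-1.36). Genes of lymphocytes had positive ones, Pou2af1 (5.03), Cd8a (1.28), Rasgrp1 (0.63), Zc3h12d (1.15) and Tnfrsf13c (1.21). Over the fits that each left out 1 sample the log2 fold changes of these were Pou2af1 (-3.96 to 1.02), Cd8a (-3.89 to 2.56), Rasgrp1 (-4.13 to 0.27), Zc3h12d (-2.996 to 0.046) and Tnfrsf13c (-2.99 to 0.78), each above 0 without benign sample 1 and below 0 in the other 8 fits. What decides these turns beyond the samples used was not tested. With 3 benign samples small changes can go uncalled, and a call need not exceed the spread between them. E2f1 was called at a mean of 15.4 CPM in the tumors and 24.3 CPM in the muscle-poor samples, whose standard deviation was 9.12 CPM. At 5240853 to 8588567 counts per sample, genes at a few CPM rest on few counts.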

Other observations

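Calls that were higher in tumors with all benign samples and vanished against muscle-poor tissue often had lower levels above the Acta1 cutoff than below it. Of these 547 genes, 326 (59.6%) were lower in each benign sample above the cutoff than in any muscle-poor one, by plain CPM. This held for 39.8% of the higher calls that stayed and 29.2% of all genes tested. Vanished calls rested on the samples left out, so part of this excess is a product of the choice. Genes of the cytosolic ribosome are an example. Their sum was 37762 to 41906 CPM in the muscle-poor samples, 20169 to 29400 CPM in the other benign samples and 32388 to 47902 CPM in the tumors. Of 80 tested, 10 were higher with all benign samples, of which 2 stayed and 8 vanished against muscle-poor tissue. Muscle genes took 3.89% to 9.51% of all counts above the cutoff and at most 0.0514% below it, and their part in this split was not tested.

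Erythroid genes summed to 1016 to 2217 CPM in the muscle-poor samples, 2407 to 3692 CPM in the other benign samples and 253.9 to 669.8 CPM in the tumors, and all 3 tested were lower in tumors in both comparisons.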
